A study of Mus musculus with 12 samples.

Results

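Transcript levels of 10 genes of interleukin-7 (IL-7) receptor signalling were compared in sorted mouse thymocytes. They were the receptor chains Il7r and Il2ra, kinases Jak1 and Jak3, transcription factors Stat5a and Stat5b, and feedback inhibitors Cish, Socs1, Socs2 and Socs3. All probes whose symbol in the platform annotation is 1 of these names were taken, which gave 20 of the 45281 probes on the array and 10 of its 19057 named genes. Of these probes 17 passed the filter for detection above background (a detection p-value under 0.05 on at least 3 of the 12 arrays), and so did 20651 probes of the whole array. Stat5b was left with no probe, so 9 of the 10 genes could be tested.

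RNA came from CD4-CD8 double-negative (DN) thymocytes of C57BL/6 mice aged 2 months and was read on Illumina MouseWG-6 v2.0 BeadChips, with 1 sample on each array. The genotypes compared were wild type (6 arrays), CD2-Lmo2 transgenic (3 arrays, called Lmo2 arrays here) and CD2-Lmo2 transgenic with Lyl1 knockout (3 arrays, called double-mutant arrays here). The title of the series speaks of an early T-cell precursor leukaemia model that Lmo2 drives and of its need for Lyl1, so the transgenic group was set against wild type, the double mutants against the transgenic group, and the double mutants against wild type. There was no group with the Lyl1 knockout alone. The CD2 promoter drives the transgene in lymphoid cells, and both transgenic groups carry it. Whether the arrays of a group come from different animals is not in the labels, so the spread behind each p-value may be technical.

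IL-7 is made by thymic stroma and is needed for the survival and division of DN thymocytes. It binds Il7r together with the common gamma chain, which brings the kinases Jak1 and Jak3 into contact. These phosphorylate Stat5a and Stat5b, which move to the nucleus and bind DNA. Cish, Socs1, Socs2 and Socs3 are switched on by STAT proteins and act back on the receptor or the kinases to end the signal. Il2ra, the alpha chain of the IL-2 receptor (CD25), is itself a known STAT5 target and marks the middle DN stages.

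STAT5 dimers bind a palindrome of the form TTCNNNGAA, which reads the same in outline on both strands. In RefSeq promoter windows of GRCm38.p6, each with 250 bases before and 50 bases from the annotated start, 2726 of 32851 windows (8.298%) held at least 1 such match and 150 (0.4566%) held at least 2. Windows were given for 9 of the 10 genes, 11 windows in all, and 3 genes had a match: Cish, Socs3 and Il7r. Socs2 had no window. The stretches that hold the matches follow in the direction of transcription, with the matches in capitals, because the inhibitors are the genes whose levels are set beside that of Stat5a in what follows.
Cish, chr9:107296559-107296678, plus strand: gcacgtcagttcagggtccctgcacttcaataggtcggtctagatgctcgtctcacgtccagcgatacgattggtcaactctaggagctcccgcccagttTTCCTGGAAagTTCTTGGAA
Socs3, chr11:117969457-117969576, minus strand: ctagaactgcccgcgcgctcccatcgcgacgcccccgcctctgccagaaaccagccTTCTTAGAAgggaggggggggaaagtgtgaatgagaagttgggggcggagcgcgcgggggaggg
Il7r, chr15:9529957-9530076, minus strand: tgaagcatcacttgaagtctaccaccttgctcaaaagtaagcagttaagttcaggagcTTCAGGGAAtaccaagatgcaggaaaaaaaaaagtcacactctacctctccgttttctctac
The Cish window held 2 matches, TTCCTGGAA with its first base at position 1 of the annotated transcript and TTCTTGGAA at position 12, with 2 bases between them. The match in Socs3, TTCTTAGAA, began 154 bases before the start, and the match in Il7r, TTCAGGGAA, 142 bases before it. A match is a string of letters in the reference. The arrays read RNA and did not measure binding or the phosphorylation of STAT5.

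Between 37.9% and 43.0% of probes were detected on each array. Wild-type replicates 4 to 6 stood apart from replicates 1 to 3: arrays correlated at 0.968 to 0.988 within the first set, at 0.985 to 0.992 within the second and at 0.947 to 0.970 between them. In the table of raw intensities 3 wild-type columns carry the word NHD13, which no label explains, and these columns matched replicates 4 to 6. Lyl1, a basic helix-loop-helix factor and the targeted gene, read 6.66 to 7.25 on the log2 scale on wild-type arrays (median 7.14), 10.01, 10.19 and 11.64 on the Lmo2 arrays, and 5.03 or less on the double-mutant arrays, where it was not above background on any of 3 arrays. It was at least 43.0-fold higher on Lmo2 than on double-mutant arrays (limma, adjusted p = 2.612e-06), a bound set by the lowest detected signal. The linear level summed over 13 DN marker genes was 79860 to 89070 on wild-type, 70760 to 92350 on Lmo2 and 79740 to 87360 on double-mutant arrays. This sum is carried mostly by Thy1, Cd3g, Cd3d, Cd3e and Bcl11b (wild-type mean log2 values of 13.36 to 14.27). It says little about dimmer genes of the list, such as Ptcra and Rag2 (9.01 and 5.48), and does not settle the DN label. Of the 13 DN marker genes 4 differed past the threshold. From wild type to Lmo2, Ptcra, the pre-T-cell receptor chain, fell by 2.78, the recombinase gene Rag1 by 1.57 and the adhesion receptor Cd44 by 1.24, while Kit, the stem-cell factor receptor, rose by 1.66 (limma, adjusted p = 0.0003551, 5.679e-05, 0.0005873 and 0.01757). From Lmo2 to double mutant all 4 changed the opposite way, by 2.85, 1.35, 1.26 and -2.84 in the same order. The other 9 DN markers were called in neither comparison, and Rag2 was above background on no Lmo2 array. These 4 genes thus moved in the same comparisons as Stat5a and Cish, and their part in those results was not tested. Of the co-receptors that the sort excludes, Cd8a was above background on none of the 12 arrays and Cd4 on 6 by 1 of its 2 probes, but Cd8b1 was detected on all 12 by each of its 3 probes.

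All values from here on are the authors' log2 values, and a difference is one of group means, with its standard error (SE), from a limma fit to all 12 arrays and all 20651 probes, with Benjamini-Hochberg adjustment over those probes. A probe counts as changed at an adjusted p under 0.05. Of the 17 member probes 4 (23.5%) changed between Lmo2 and wild-type arrays, against 8.84% of all probes, with 2 up (4.65% of all probes) and 2 down (4.18%). Between double-mutant and Lmo2 arrays 4 (23.5%) changed, against 7.03% of all probes, again with 2 up (3.25%) and 2 down (3.78%). Between double-mutant and wild-type arrays 0 of 17 passed limma's adjusted threshold, against 0.707% of all probes, and 5 had an unadjusted p under 0.05. For this and the later unadjusted counts no share over all probes or genes was computed, so they cannot be set against the whole array. The changed probes belong to Stat5a, Cish and Jak1. Both comparisons with calls rest on the same 3 Lmo2 arrays, so their values are given side by side and not as independent results.

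**Figure D1:**
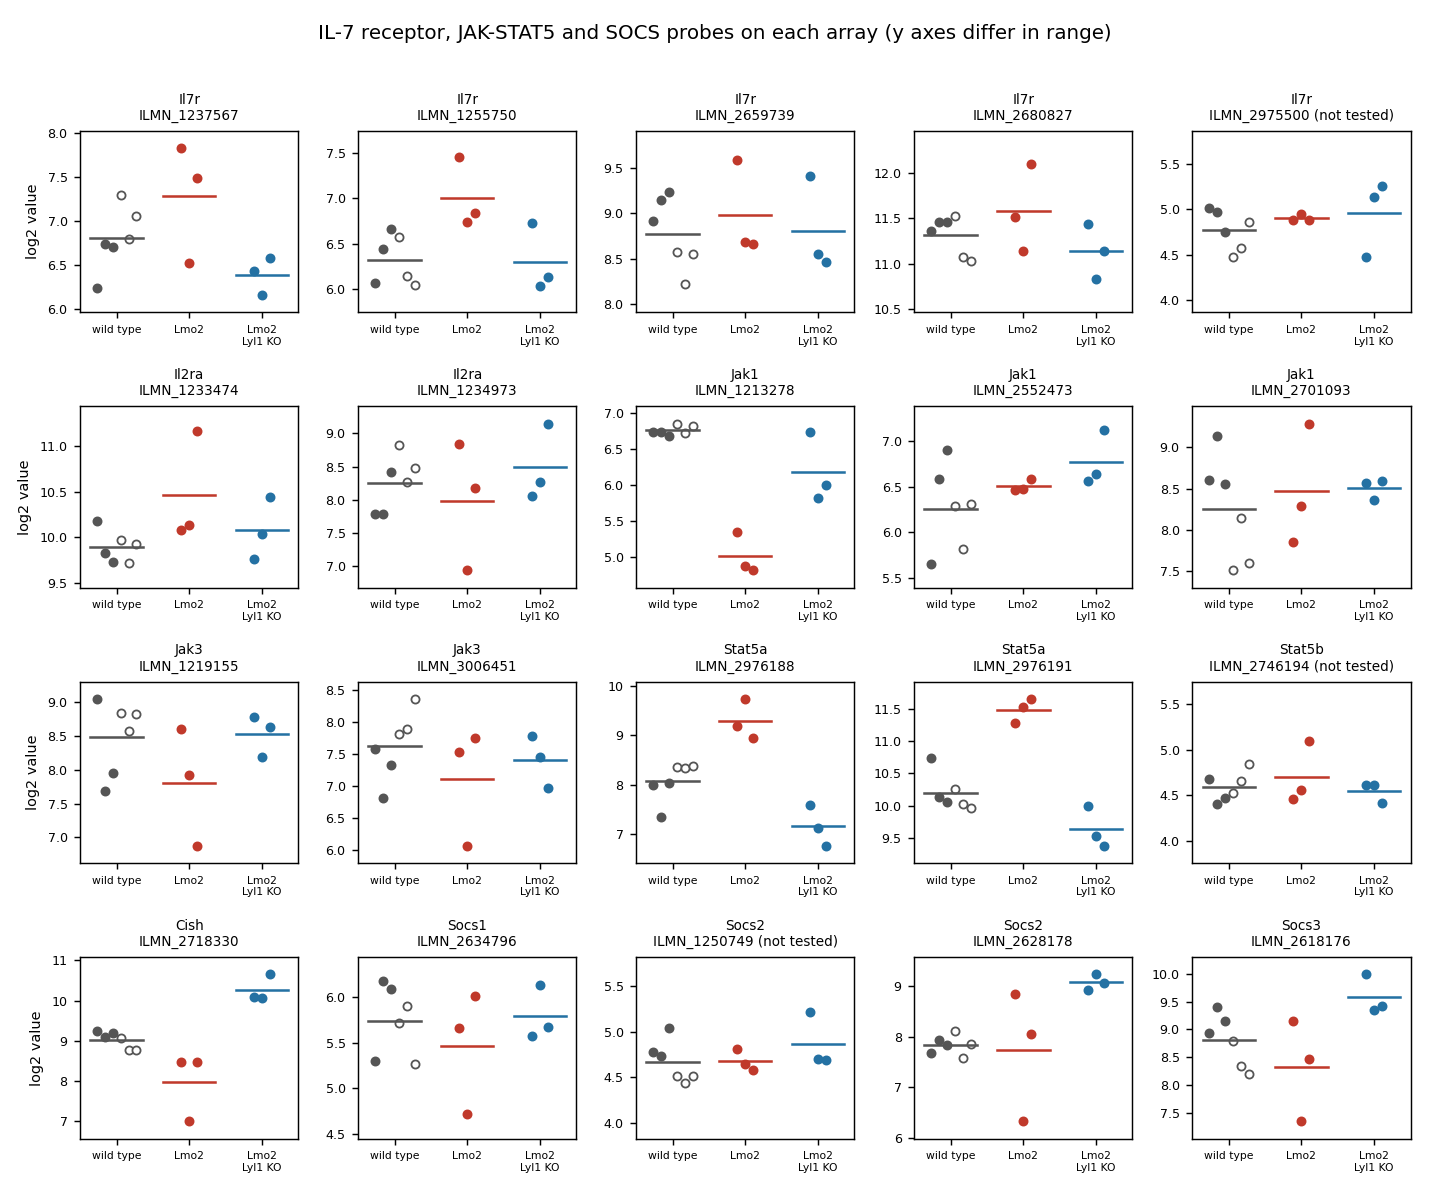
The log2 value of each of the 20 member probes (1 panel each, y axis in log2 units with a range of its own) on the 12 arrays, grouped by genotype. Points are arrays, horizontal bars are group means, and open circles are wild-type replicates 4 to 6. Both Stat5a probes are highest on the 3 Lmo2 arrays, and Cish is highest on the 3 double-mutant arrays.

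Il7r, the ligand-binding chain of the IL-7 receptor, is represented by 5 probes. Of the 4 tested, 0 passed limma's adjusted threshold in any comparison, and the unadjusted p was under 0.05 for 1 in Lmo2 minus wild type and for 2 in double mutant minus Lmo2. Its brightest probe, ILMN_2680827, read 11.03 to 11.53 on wild-type arrays (median 11.40), 11.51, 11.14 and 12.09 on the Lmo2 arrays, and 11.44, 10.83 and 11.14 on the double-mutant arrays. All 3 groups overlapped on this probe. The Lmo2 minus wild-type difference was 0.27 ± 0.22 (SE; limma, adjusted p = 0.5198), with a 95% interval of -0.21 to 0.74, whose upper end is a 1.67-fold rise.

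A dimmer Il7r probe, ILMN_1255750, was higher on the Lmo2 arrays than on any other, by a narrow margin. It read 6.04 to 6.66 on wild-type arrays (median 6.29), 7.45, 6.74 and 6.83 on the Lmo2 arrays, and 6.72, 6.03 and 6.14 on the double-mutant arrays. The groups did not overlap, with Lmo2 minus wild type at 0.69 ± 0.22 (limma, adjusted p = 0.0841) and double mutant minus Lmo2 at -0.71 ± 0.26 (limma, adjusted p = 0.1438), neither past the threshold. Probe ILMN_1237567 gave 0.47 ± 0.28 and -0.89 ± 0.32 for the same comparisons (limma, adjusted p = 0.3578 and 0.1422). Without Lmo2 replicate 2, the lowest of the 3 Lmo2 arrays on that probe at 6.53, the second difference became -1.27 and passed the threshold (limma, adjusted p = 0.01702). The remaining tested probe, ILMN_2659739, gave 0.21 and -0.17. Its Lmo2 minus wild-type difference was -0.12 against wild-type replicates 1 to 3 alone and 0.53 against replicates 4 to 6 alone, neither past the threshold. With all arrays in the fit, the 4 tested Il7r probes all had Lmo2 minus wild-type differences above 0, from 0.21 to 0.69. In double mutant minus Lmo2 all 4 were below 0, from -0.89 to -0.17. These probes read the same RNA on the same arrays and are not replicates. The fifth Il7r probe, ILMN_2975500, was above background on 2 double-mutant arrays only and was not tested.

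Il2ra was bright on every array by its probe ILMN_1233474, with no difference past the threshold. The values were 9.72 to 10.18 on wild-type arrays (median 9.88), 10.08, 10.13 and 11.17 on the Lmo2 arrays, and 9.76, 10.03 and 10.45 on the double-mutant arrays. Lmo2 replicate 3 was the highest of all 12 arrays, and the other 2 Lmo2 arrays lay inside the range of wild type. The differences were 0.57 ± 0.24 for Lmo2 minus wild type and -0.38 ± 0.28 for double mutant minus Lmo2 (limma, adjusted p = 0.1855 and 0.5324). Without Lmo2 replicate 3 they were 0.22 and -0.02. The other probe, ILMN_1234973, gave -0.28 ± 0.39 and 0.51 ± 0.45, also short of the threshold, and 0.25 and -0.02 without Lmo2 replicate 2.

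Jak1, the kinase bound to the Il7r chain, gave probes that disagree. ILMN_1213278 read 6.68 to 6.85 on the 6 wild-type arrays (median 6.74), 5.35, 4.87 and 4.81 on the Lmo2 arrays, and 6.73, 5.81 and 5.99 on the double-mutant arrays. The Lmo2 arrays lay below all others, and only 1 of the 3 was above background (detection p-values of 0.0417 to 0.256). The probe fell by 1.75 ± 0.20 from wild type to Lmo2 (SE; n = 3 against 6; limma, adjusted p = 0.0001216) and rose by 1.17 ± 0.23 from Lmo2 to double mutant (n = 3 against 3; limma, adjusted p = 0.006905). Since 2 Lmo2 arrays were at background, the size of the fall is set in part by the background level.

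The other Jak1 probes did not follow. ILMN_2701093, the brightest, read 7.51 to 9.13 on wild-type, 7.86 to 9.28 on Lmo2 and 8.37 to 8.60 on double-mutant arrays, with differences of 0.22 ± 0.37 and 0.03 ± 0.43 (limma, adjusted p = 0.7736 and 0.9802). On this probe wild-type replicates 1 to 3 (8.56 to 9.13) lay above replicates 4 to 6 (7.51 to 8.14). Lmo2 minus wild type was -0.29 against the first set alone and 0.73 against the second, neither past the threshold. ILMN_2552473 read 5.65 to 6.90, 6.47 to 6.59 and 6.57 to 7.13, with differences of 0.25 ± 0.25 and 0.27 ± 0.29. Their 95% intervals for Lmo2 minus wild type, -0.59 to 1.03 and -0.30 to 0.80, lie wholly above that of ILMN_1213278, which runs from -2.18 to -1.32. Which Jak1 transcript each probe reads was not tested, so no direction is given for the gene.

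Jak3, the kinase bound to the common gamma chain, gave no difference past the threshold. Its brighter probe, ILMN_1219155, read 7.68 to 9.04 on wild-type arrays (median 8.69), 8.59, 7.93 and 6.88 on the Lmo2 arrays, and 8.77, 8.19 and 8.63 on the double-mutant arrays. The lowest value was that of Lmo2 replicate 3, and the groups overlapped. Lmo2 minus wild type was -0.68 ± 0.38 (limma, adjusted p = 0.3227), and ILMN_3006451 gave -0.52 ± 0.39 (0.4845). The former was -0.22 without Lmo2 replicate 3, and the latter 0.01 without Lmo2 replicate 2.

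Stat5a was higher on Lmo2 arrays than in either other group by both of its probes. ILMN_2976191 read 9.96 to 10.75 on wild-type arrays (median 10.10), 11.28, 11.53 and 11.66 on the Lmo2 arrays, and 9.998, 9.52 and 9.38 on the double-mutant arrays. Every Lmo2 array lay above every other array. The rise over wild type was 1.29 ± 0.20 (SE; n = 3 against 6), which is 2.45-fold (limma, adjusted p = 0.001356), with a 95% interval of 0.86 to 1.73.

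The same probe fell by 1.86 ± 0.23 from Lmo2 to double mutant, which is 3.63-fold (n = 3 against 3; limma, adjusted p = 0.0003049). Double mutant minus wild type was -0.57 ± 0.20 (limma, adjusted p = 0.319), and 1 double-mutant array, replicate 1 at 9.998, lay within the wild-type range. The rise over wild type was found against each wild-type set by itself, at 1.18 against replicates 1 to 3 and 1.41 against replicates 4 to 6 (limma, adjusted p = 0.02875 and 0.002942).

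The other Stat5a probe, ILMN_2976188, is dimmer and gave the same order. It read 7.36 to 8.37 on wild-type arrays (median 8.19), 9.19, 9.73 and 8.94 on the Lmo2 arrays, and 7.59, 7.13 and 6.77 on the double-mutant arrays. It rose 2.32-fold in Lmo2 against wild type (1.21 ± 0.27; limma, adjusted p = 0.01276) and fell 4.37-fold from Lmo2 to double mutant (-2.13 ± 0.31; limma, adjusted p = 0.0009199). The rise lost its call without Lmo2 replicate 2 (0.99; limma, adjusted p = 0.05912). Double mutant minus wild type was -0.92 ± 0.27 (limma, adjusted p = 0.2027). Against wild-type replicates 4 to 6 alone it was -1.20 and past the threshold (limma, adjusted p = 0.02744). Against replicates 1 to 3 alone it was -0.63 and not called (limma, adjusted p = 0.9068).

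Stat5b, the close relative of Stat5a, was read by 1 probe, ILMN_2746194. Its values were 4.41 to 4.84 on wild-type, 4.46 to 5.10 on Lmo2 and 4.41 to 4.61 on double-mutant arrays, above background on 0 of 12. A probe at background bounds the signal of that probe only, and the level of the gene is not given by it.

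**Figure D2:**
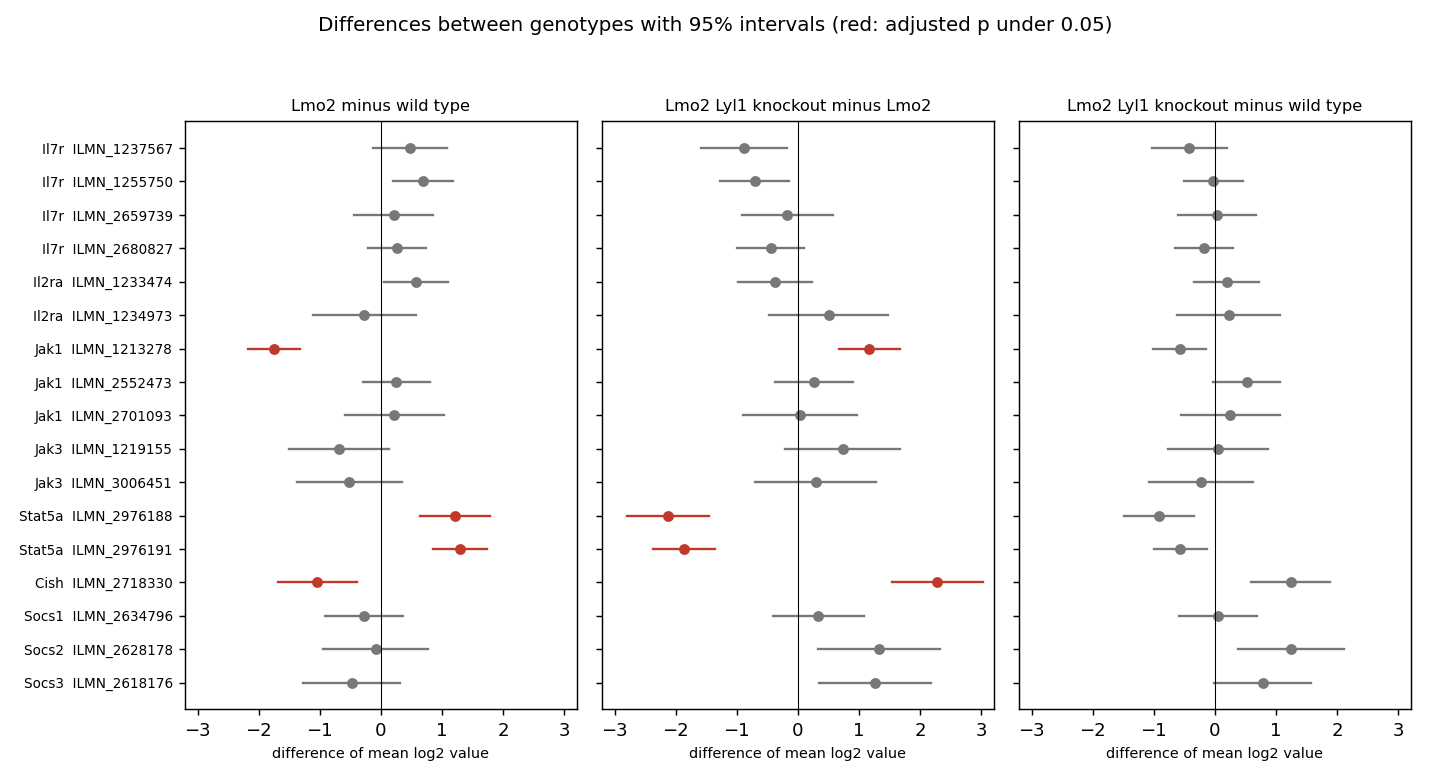
Differences of group means (x axis, log2 units) for the 17 tested member probes in each of the 3 comparisons, with 95% intervals from the limma fit. Red marks an adjusted p under 0.05, which 4 probes reach in Lmo2 minus wild type and 4 in double mutant (named Lmo2 Lyl1 knockout there) minus Lmo2. The Stat5a intervals lie above 0 in the first and below 0 in the second, and Cish lies the other way round.

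Cish, the inhibitor that binds the phosphorylated receptor and competes with STAT5, was lowest on Lmo2 arrays and highest on double-mutant arrays. Its probe, ILMN_2718330, read 8.77 to 9.26 on wild-type arrays (median 9.08), 8.47, 7.01 and 8.48 on the Lmo2 arrays, and 10.10, 10.06 and 10.65 on the double-mutant arrays. None of the 3 groups overlapped with another. From Lmo2 to double mutant it rose by 2.28 ± 0.34, which is 4.87-fold (SE; n = 3 against 3; limma, adjusted p = 0.001265). This difference was 1.79 without Lmo2 replicate 2 (limma, adjusted p = 0.0005679).

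The fall of Cish from wild type to Lmo2 was smaller, at -1.04 ± 0.30 or 2.06-fold, and only just past the threshold (limma, adjusted p = 0.04936). Its size rested on Lmo2 replicate 2, without which it was -0.55 and not called (limma, adjusted p = 0.1302). Leaving out any other array except Lmo2 replicates 1 and 3 also ended the call, with little change in size (-1.09 to -0.99). The call was also lost against wild-type replicates 1 to 3 alone (-1.20; adjusted p = 0.1325) and against replicates 4 to 6 alone (-0.88; adjusted p = 0.1372). Double mutant minus wild type was 1.24 ± 0.30, short of the threshold with all arrays in the fit (limma, adjusted p = 0.1058). It passed without Lmo2 replicate 2, which enters only the shared spread there (1.24 ± 0.18; limma, adjusted p = 0.007763).

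Socs2, an inhibitor best known for limiting growth hormone signalling and also induced by STAT5, was highest on the double-mutant arrays. ILMN_2628178 read 7.58 to 8.11 on wild-type arrays (median 7.84), 8.85, 6.33 and 8.05 on the Lmo2 arrays, and 8.92, 9.23 and 9.06 on the double-mutant arrays. The double-mutant arrays lay above all 9 others, while the 3 Lmo2 arrays spread over 2.51 log2 units, on both sides of wild type. Double mutant minus wild type was 1.24 ± 0.40 (limma, adjusted p = 0.2608) and double mutant minus Lmo2 was 1.33 ± 0.46 (limma, adjusted p = 0.1188). The second passed the threshold without Lmo2 replicate 1 (1.88; limma, adjusted p = 0.01175), the Lmo2 array with the highest Socs2, and fell to 0.62 without Lmo2 replicate 2 (limma, adjusted p = 0.159). The first passed without Lmo2 replicate 2 (limma, adjusted p = 0.01137). The other Socs2 probe, ILMN_1250749, was above background on 0 of 12 arrays and was not tested.

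Socs3, which blocks JAK kinases and the gp130 family of receptors, had its highest group mean in the double mutants. ILMN_2618176 read 8.20 to 9.41 on wild-type arrays (median 8.86), 9.15, 7.35 and 8.46 on the Lmo2 arrays, and 9.99, 9.34 and 9.41 on the double-mutant arrays. The double-mutant arrays lay above the Lmo2 arrays without overlap and above all wild-type arrays but replicate 2, at 9.41. The difference from Lmo2 was 1.26 ± 0.42 (limma, adjusted p = 0.1101) and that from wild type 0.78 ± 0.37 (limma, adjusted p = 0.4577). Lmo2 minus wild type was -0.48 ± 0.37, and 0.01 without Lmo2 replicate 2. It was -0.84 against wild-type replicates 1 to 3 alone and -0.12 against replicates 4 to 6 alone. Double mutant minus wild type was 0.42 and 1.14 in the same order, and none of these values passed the threshold. Without Lmo2 replicate 1 the difference from Lmo2 was 1.68 and passed (limma, adjusted p = 0.03019), and without Lmo2 replicate 2 it was 0.77 (limma, adjusted p = 0.2541).

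Socs1, which binds and inhibits JAK kinases directly, was close to background and passed the threshold in no comparison. ILMN_2634796 read 5.27 to 6.18 on wild-type arrays, 5.67, 4.72 and 6.02 on the Lmo2 arrays, and 5.58, 6.13 and 5.68 on the double-mutant arrays, above background on 5 of 6, 2 of 3 and 3 of 3. Its differences were -0.28 ± 0.30 and 0.33 ± 0.34 (limma, adjusted p = 0.6306 and 0.6895).

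Groups that did not overlap were counted over the 17 tested probes. This held for 5 probes between Lmo2 and wild type, for 7 between double mutant and Lmo2, and for 2, Cish and Socs2, between double mutant and wild type. Over all tested probes the shares were 12.3%, 23.8% and 7.97%. The median difference over the 17 probes was 0.21, 0.27 and 0.05 in that order of comparisons, beside -0.01, 0.02 and 0.00 over all probes.

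**Figure D3:**
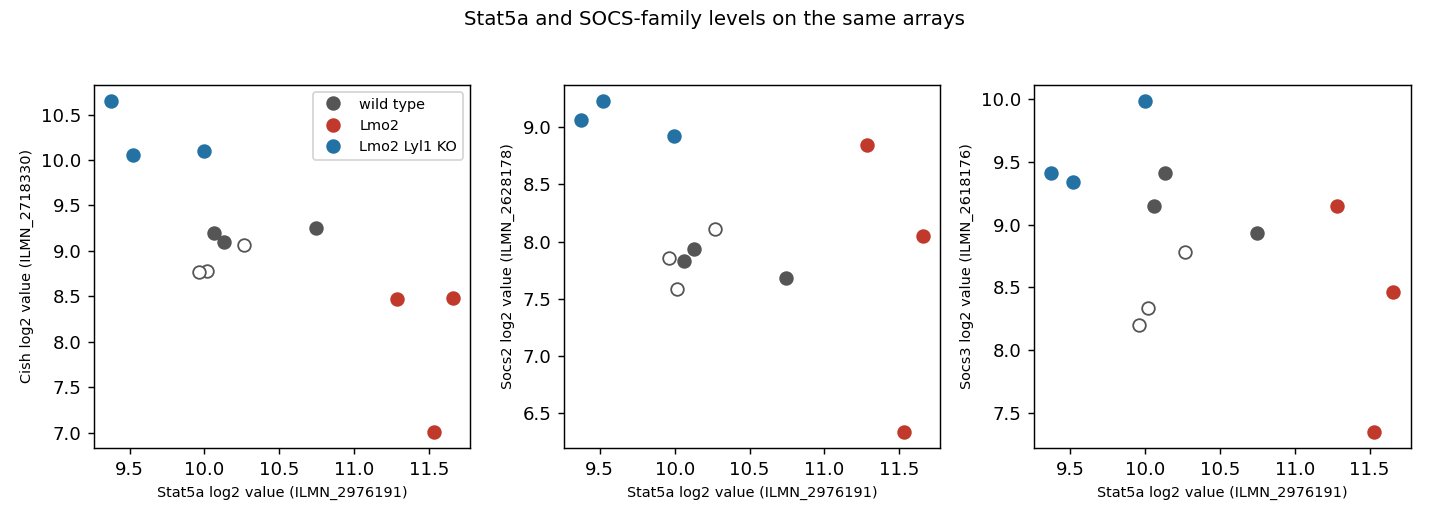
The log2 value of Cish, Socs2 and Socs3 (y axes) against that of Stat5a probe ILMN_2976191 (x axis) on each array, with open circles for wild-type replicates 4 to 6. The 3 Lmo2 arrays lie at the right, with the highest Stat5a, and the 3 double-mutant arrays at the upper left, with 9.38 to 9.998 for Stat5a and 10.06 to 10.65 for Cish.

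Across the 12 arrays Cish, Socs2 and Socs3 followed each other and not Stat5a, as a description of arrays that share genotypes. Pearson's r was 0.84 between Cish and Socs3, 0.82 between Cish and Socs2, and 0.82 between Socs2 and Socs3. Socs1 followed them less closely, at 0.49 with Cish, 0.53 with Socs2 and 0.58 with Socs3. Against Stat5a r was -0.80 for Cish, -0.51 for Socs2, -0.53 for Socs3 and -0.38 for Socs1. On Lmo2 replicate 2 all 4 inhibitors stood at their lowest value of the 12 arrays, at 7.01 for Cish, 4.72 for Socs1, 6.33 for Socs2 and 7.35 for Socs3. The same array had the lowest value of Il2ra probe ILMN_1234973 and of Jak3 probe ILMN_3006451, and a Stat5a value of 11.53 between those of the other Lmo2 arrays.

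The genes most like the members were named by the highest Pearson r over the 12 arrays. Nearest to Stat5a were Ppp1r1b (r = 0.963), a phosphatase inhibitor, Aldh1b1 (0.954), a mitochondrial aldehyde dehydrogenase, and Tgfbr3 (0.949), a co-receptor for TGF-beta. Cish was followed most closely by Sri (0.946), a calcium-binding protein, Cd9 (0.944), a tetraspanin, and Hivep3 (0.932), a zinc-finger factor. For Socs3 the list began with Cytip (0.969), a regulator of cell adhesion, for Socs2 with App (0.938), the amyloid precursor protein, and for Il7r with Gimap7 (0.917), a lymphocyte GTPase. Jak3 was nearest to Rbck1 (0.955) and Il2ra to Slc39a11 (0.921), a zinc transporter.

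Of 48 further genes of the pathway, in 5 lists, 42 could be tested by their brightest probe. Between wild type and Lmo2 3 rose and 2 fell, where 10.6% of all 10526 genes changed, 5.59% up and 4.97% down. From Lmo2 to double mutant 3 fell and 0 rose by limma's adjusted p (5 had an unadjusted p under 0.05 and a rise), where 8.77% of all genes changed, 4% up and 4.77% down. From wild type to double mutant 0 of the 42 passed the adjusted threshold and 6 an unadjusted p under 0.05, where 0.893% of all genes passed the former. The median differences of the lists in these 3 comparisons were 0.01, 0.20 and 0.00 for the receptor chains, -0.10, -0.11 and 0.00 for the other JAK and STAT genes, 0.06, 0.12 and 0.09 for the other inhibitors, -0.39, 0.31 and 0.20 for the downstream genes, and 0.27, -0.27 and -0.02 for the factors that control Il7r. Over all genes they were -0.02, 0.01 and -0.01.

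Among receptor chains that share or resemble the IL-7 system, 4 of 7 were tested, and 1 fell between wild type and Lmo2. This was Il2rb, the signalling beta chain for IL-2 and IL-15, at 6.24 to 7.52 on wild-type arrays, 4.69, 5.40 and 5.63 on the Lmo2 arrays, and 5.77, 5.82 and 6.46 on the double-mutant arrays. The fall was 1.83 ± 0.29, or 3.56-fold (limma, adjusted p = 0.001527). Il2rb is also 1 of 15 markers on the list for natural killer (NK) and innate lymphoid cells, of which 11 were tested. In the same comparison 9 of those 11 fell, with a summed linear level of 13710 to 19280 on wild-type, 3743 to 7187 on Lmo2 and 7952 to 10020 on double-mutant arrays. Both the count and the sum include Il2rb itself. The part of such cells in the Il2rb result was not tested. In sorted bulk samples fewer cells of a type and less RNA per cell cannot be told apart. The common gamma chain gene Il2rg was not analysed here.

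Of the other JAK and STAT genes 6 of 7 were tested. Stat3, the main transducer of IL-6 family signals, rose from wild type to Lmo2 and fell from Lmo2 to double mutant. Its values were 10.66 to 11.15 on wild-type arrays, 12.10, 11.45 and 12.03 on the Lmo2 arrays, and 10.96, 10.97 and 11.22 on the double-mutant arrays. The differences were 0.92 ± 0.18 (limma, adjusted p = 0.007322) and -0.81 ± 0.21 (limma, adjusted p = 0.03716). The rise was not called against wild-type replicates 1 to 3 alone, and the fall not when Lmo2 replicate 1 or 3, wild-type replicate 4 or 6 or any double-mutant array was left out. A further Stat3 probe also passed in both (0.89 and -0.91), and the remaining one in neither. Tyk2, a kinase of interferon and IL-12 receptors, fell between wild type and Lmo2 (-0.55 ± 0.15; limma, adjusted p = 0.04053), a call lost in 16 of 24 alternatives, among them leaving out any array but wild-type replicate 2 or Lmo2 replicate 1. Jak2 gave 0.30 ± 0.27 and -0.14 ± 0.31.

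Of the other inhibitors, which are further SOCS genes, PIAS genes, phosphatases and others, 14 of 15 were tested and 0 passed limma's adjusted threshold in any comparison. The unadjusted p was under 0.05 for 2, 1 and 1 of them. Socs6, which was close to it, gave 0.71 ± 0.22 in Lmo2 minus wild type (limma, adjusted p = 0.07575). Ptprc, the phosphatase CD45, gave 1.04 ± 0.41 in double mutant minus Lmo2 (limma, adjusted p = 0.1783). A dimmer probe of each gave smaller differences in the same comparisons, 0.21 for Socs6 and 0.32 for Ptprc.

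Among 10 survival, growth and cycle genes downstream of IL-7 and STAT5, all of which were tested, 1 rose between wild type and Lmo2. This was Osm, which encodes oncostatin M and is a known STAT5 target, with 8.51 to 8.93 on wild-type arrays, 9.88, 9.24 and 9.60 on the Lmo2 arrays, and 9.18, 9.32 and 9.46 on the double-mutant arrays. Its rise was 0.85 ± 0.16 (limma, adjusted p = 0.005389), not called against wild-type replicates 1 to 3 alone, and a dimmer Osm probe gave -0.41 and was not called. Bcl2, the survival factor that IL-7 maintains, gave -0.66 ± 0.42 (limma, adjusted p = 0.3888). Its dimmer probes gave -1.08 to -0.09 in Lmo2 minus wild type, none past the threshold. The brightest Bcl2 probe was at 7.64 on Lmo2 replicate 2 against 9.45 to 10.23 on the other 11 arrays. Ccnd2, a D-type cyclin, was also lowest on that array, at 8.38 against 10.62 to 12.38 elsewhere. Myc gave -0.78 ± 0.27 (limma, adjusted p = 0.1027). Pim3, a kinase induced by STAT proteins, read 10.61 to 10.77 on the double-mutant arrays and 9.21 to 10.43 on all others, and its difference from Lmo2 was 0.88 ± 0.27 (limma, adjusted p = 0.07857).

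Of the factors that control Il7r, 8 of 9 were tested. Foxo3, a forkhead factor that is active when growth-factor signalling is low, read 6.03 to 6.92 on wild-type arrays, 7.42, 7.66 and 7.81 on the Lmo2 arrays, and 6.28, 6.21 and 5.96 on the double-mutant arrays. It rose by 1.16 ± 0.18 (limma, adjusted p = 0.001608) and fell by 1.48 ± 0.21 (limma, adjusted p = 0.0009199). Gfi1, a repressor of Il7r, fell from Lmo2 to double mutant (-0.54 ± 0.15; limma, adjusted p = 0.04686), a call lost when any array other than Lmo2 replicate 3 was left out. Foxo1, which turns Il7r on, gave -0.54 ± 0.25 in Lmo2 minus wild type (limma, adjusted p = 0.2242), and -0.15 without Lmo2 replicate 2.

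Markers of other cell types that a DN gate can hold moved between the groups too. The summed linear level of 11 tested myeloid markers was 3667 to 15140 on wild-type, 1907 to 6509 on Lmo2 and 26330 to 49530 on double-mutant arrays, so the group with the highest Cish, Socs2 and Socs3 also had the highest myeloid sum. Within the double mutants the sum was 26330, 45490 and 49530 on replicates 1 to 3, where Cish read 10.10, 10.06 and 10.65, Socs2 8.92, 9.23 and 9.06, and Socs3 9.99, 9.34 and 9.41. From Lmo2 to double mutant 5 of the 11 rose (S100a8, S100a9, Elane, Mpo and Fcer1g), by 2.57 for Fcer1g up to 6.84 for S100a9, a neutrophil alarmin (limma, adjusted p = 0.0001735 and 0.004601). The other 6 were not called, and 4 of them, macrophage and monocyte genes, had differences below 0 (C1qb -1.27, C1qc -0.80, Cd14 -0.39 and Adgre1 -0.24). The remaining ones, Lyz2 (1.89) and the macrophage gene Csf1r (0.51), had differences above 0. From wild type to Lmo2 2 of the 11 rose, C1qb by 2.00 and Cd14 by 1.16 (limma, adjusted p = 0.01711 and 0.02831). In that comparison Mpo fell by 2.76 and Fcer1g fell by 2.13 (limma, adjusted p = 0.02943 and 0.0001955). Regulatory T-cell markers, 6 genes, summed to 2678 to 3320, 1891 to 2302 and 2928 to 3662, lowest on the Lmo2 arrays like Cish. B-cell markers (6 of 9 tested) summed to 2405 to 4723, 800.2 to 2413 and 1667 to 3815. Dendritic-cell markers (7 of 10 tested) summed to 6016 to 22670, 2819 to 11190 and 7922 to 14150. Markers of double-positive and mature T cells (4 of 9 tested) summed to 9487 to 13170, 7127 to 8083 and 10750 to 10940. Lmo2 replicate 2, the array with the lowest inhibitors, had the lowest NK, B-cell, dendritic, DN and double-positive sums of the 12. The part of these cells in the Cish, Socs2 and Socs3 values was not tested.

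**Figure D4:**
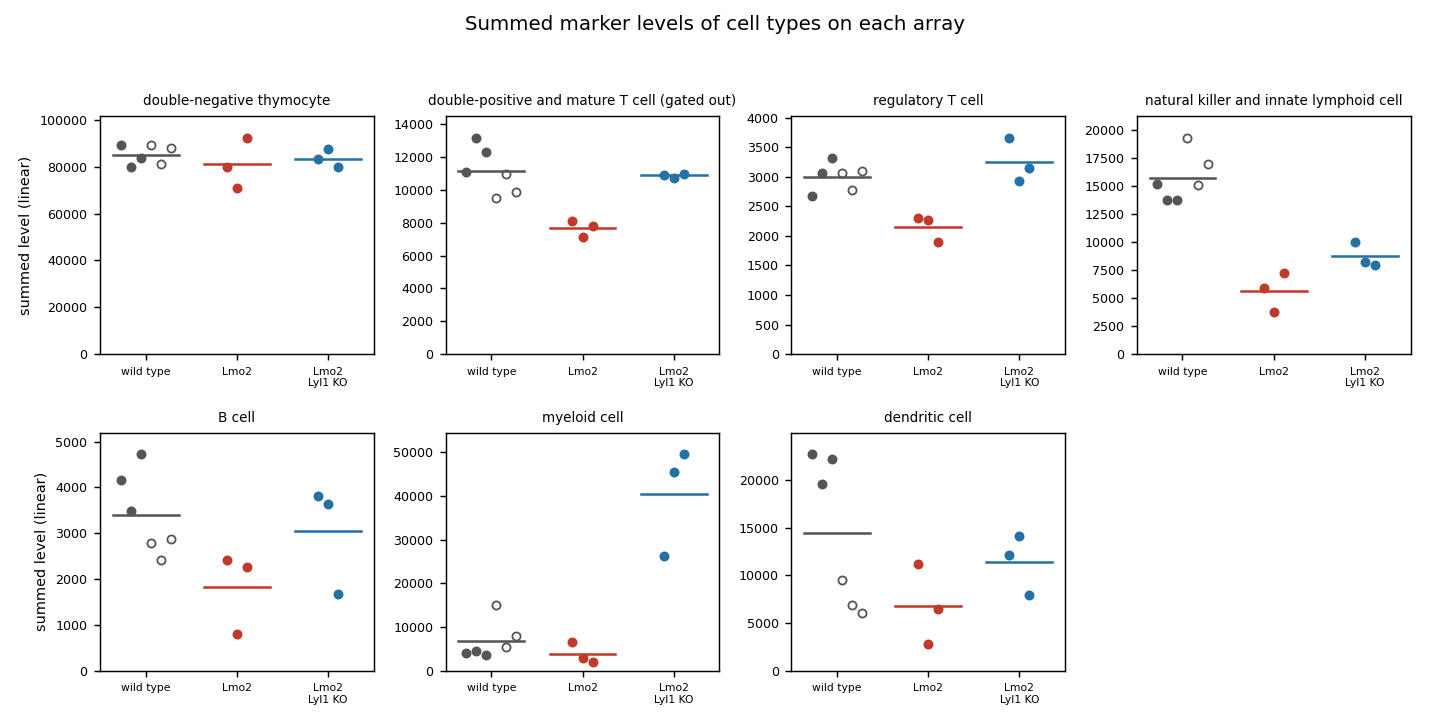
Summed linear levels (y axes, from 0) of the tested marker genes of 7 cell types on each array, with bars for group means and open circles for wild-type replicates 4 to 6. The myeloid sum is highest on the 3 double-mutant arrays, at 26330 to 49530, and the NK and innate lymphoid sum is lowest on the 3 Lmo2 arrays, at 3743 to 7187.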

How the data were processed

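The deposited raw table gives each probe a linear bead intensity on each array. Next to it stands a detection p-value, per the file headers. The authors' value table holds log2 values, and the submitters' processing notes name BeadStudio and limma without versions. No source used here states the background method. Each column matched 1 raw array after a normal-exponential correction and quantile normalization (neqc), which settles scale and direction. Per array, medians were 4.88 to 4.89.

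Log2 values were kept for probes with a detection p-value under 0.05 on at least 3 of 12 arrays and fitted with limma 3.58.1 under R 4.3.3 (lmFit, contrasts, eBayes; 9 residual degrees of freedom, two-sided, no covariate). Probe names come from the platform annotation: 34885 probes had 1 symbol, 18 several and 10378 none. The fit was tested on simulated data. The members and lists were chosen with earlier results of these data known. Named genes are all members, Lyl1, up to 4 called genes per pathway list and comparison, and Jak2, Stat3, Bcl2, Myc, Foxo1 and Gfi1. The 3 genes most correlated with each member were ranked, and not all of them are named. Marker genes are named where a value was needed beside a result. Named outside these rules, after their values were seen, are Socs6, Ptprc, Ccnd2 and Pim3. Alternatives were other normalizations, filters, wild-type sets, array weights, a replicate block and each array left out. The number of arrays limits the precision.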

Additional observations from a re-analysis of the deposited data

Results flagged for a closer look

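Of 21 groups of member values examined for a sample far from the others, 1 stood out. The dimmer Stat5a probe, ILMN_2976188, read 7.36 on wild-type replicate 2, while the other 5 wild-type arrays read 8.003 to 8.37. The gap is 0.636 of the whole range of the group, above Dixon's critical value of 0.625. Chance gives about 1 such group in 20. The brighter Stat5a probe read 10.13 on that array, inside the range of the other wild-type arrays.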

How the results depend on the processing

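Of the 8 called member differences, 188 alternative values were computed: 163 kept their call and 25 lost it, and none changed direction. The losses fell on Cish in Lmo2 minus wild type (19), on Stat5a in the same comparison (3 for ILMN_2976188 and 1 for ILMN_2976191) and on Jak1 ILMN_1213278 in double mutant minus Lmo2 (2, at most an adjusted p of 0.09935). Stat5a and Cish in double mutant minus Lmo2 and Jak1 ILMN_1213278 in Lmo2 minus wild type kept their calls in all that were run. Of 43 uncalled differences 19 changed sign and 10 were called in at least 1 alternative.

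The 4 called probes of Lmo2 minus wild type became 2 with 1 probe per gene, 2 with the wild-type sets as random blocks (correlation 0.2282) and 1 with a replicate block, and 2 to 4 with 1 array left out. The 4 of double mutant minus Lmo2 became 2 with 1 probe per gene and 4 to 6 with 1 array left out. The 0 of double mutant minus wild type became 1 against wild-type replicates 4 to 6 alone, where 8.74% of all probes were called. It became 2 with only the 2 groups in the fit (1.08% of all probes) and 0 to 2 with 1 array left out. With array weights it became 7 (Stat5a and Jak1 with 2 probes each, Cish, Socs2 and Socs3), where 22.5% of all probes were called. With 1 probe per gene only 9 member probes are tested. In that setting 12.5% of all genes were called in Lmo2 minus wild type and 10.4% in double mutant minus Lmo2. For the other shifts the cause was not tested.

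Over all probes the 1825 calls of Lmo2 minus wild type became 1050 with a common median, 947 and 3651 against wild-type replicates 1 to 3 and 4 to 6 alone, 774 with random blocks and 789 with a replicate block. The 1452 of double mutant minus Lmo2 became 949 with a common median, 682 with random blocks, 700 with only its 2 groups and 949 with the block; leaving out 1 array gave 958 to 1630. The 146 of double mutant minus wild type became 75 and 1804 against the wild-type sets, 224 with only its 2 groups, 29 with random blocks, 31 with the block, 4642 with array weights, and 44 to 183 with 1 array left out. Deviations of same-numbered samples from their group means correlated weakly or not at all (r from -0.3501 to 0.2091). With 3 samples in a group this cannot exclude a pairing, and the labels name none.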
